A study of Mus musculus with 23 samples.

Results

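Nuak1 and Nuak2, 2 of the 12 kinase genes targeted in a pool of barcoded lentiviral vectors, were targeted together by 1 of its 26 named vectors. The members were chosen by vector name, with no measured value, and a tumour was a barcode of that vector with at least 500 estimated cells. By this rule 8368 of 324965 tumours in 21 mice carried the Nuak1/Nuak2 vector. Another 24305 carried 1 of the 2 inert vectors, whose guides are named only Neo and NT, after none of the targeted genes. The pool was given to mice to start lung tumours, and after 4 months DNA of the tumour-bearing lungs was sequenced by tumour barcoding (Tuba-seq), which reads for each clone the identity of its vector and a random barcode. All mice were of a mixed BL6/129 strain, all carried the oncogene allele KrasLSL-G12D/+ together with the reporter R26LSL-Tomato, and both alleles are silent until Cre acts. KT mice had these alleles only. KT_Cas9 mice had H11LSL-Cas9 besides, so that Cre also switches on the nuclease. KTL_Cas9 mice had Cas9 in the same way and were also Lkb1flox/flox, so that Cre itself removes Lkb1 in every tumour. Of 5 mice labelled KT, 10 labelled KT_Cas9 and 8 labelled KTL_Cas9, the comparisons used 4, 10 and 7.

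Nuak1 and Nuak2 belong to the AMPK-related kinases, the family of serine/threonine kinases that the tumour suppressor kinase Lkb1 (gene name Stk11) switches on by phosphorylating their activation loop. Nuak1 is known for roles in cell adhesion through myosin phosphatase, in the stress and metabolic response of Myc-driven cells and in axon branching, and Nuak2 is its close relative. Because Lkb1 lies upstream, KT_Cas9 mice test the loss of both kinases with Lkb1 present, and KTL_Cas9 mice test it where Lkb1 is already gone. KT mice have no Cas9, so their guides cannot cut and their values are the background.

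The Nuak1/Nuak2 vector carried an inert guide behind the bU6 promoter, 1 Nuak1 guide behind mU6 and 1 Nuak2 guide behind hU6. It was 1 of 11 targeting vectors of this triple design, with 3 guide cassettes, among 24 in all, and 1 of the 2 inert vectors had it too. The other vectors had a pair of cassettes and are called dual. With 1 guide a gene and no vector against either gene alone, the genes cannot be told apart, and whether the guides cut was not measured. The vector was read from an 8-base tag, shown here with those of both inert vectors because every count below rests on telling them apart.
Nuak1/Nuak2 triple vector tag: GAGAACTC
inert triple vector tag: AATTGCCG
inert dual vector tag: AATCCGGT
The Nuak1/Nuak2 tag differed from the inert triple tag at 6 of its 8 bases and from the inert dual tag at 7. The nearest of the other tags was that of a dual Sik1/Sik3 vector, with 3 differences. Behind the tag stood a barcode of 30 bases, of which 10 were the same in all 22969 Nuak1/Nuak2 barcode records and 20 were random. The largest Nuak1/Nuak2 clone of each genotype is printed here as the example of what was counted, with the fixed bases in capitals.
KT largest clone: GCtttgtTAtcgccGCtgtggTAtgtagGC
KT_Cas9 largest clone: GCtgtggTAtcgtgGCgggagTAgggggGC
KTL_Cas9 largest clone: GCagaaaTAtcggcGCataaaTActacaGC
These clones held 139471 cells in KT replicate 1, 1415496 cells in KT_Cas9 replicate 4 and 3495834 cells in KTL_Cas9 replicate 4. The first of them was larger than every inert tumour of its mouse, of which the largest held 136015 cells. The other clones were each exceeded by 1 inert tumour, of 5025135 and 3630383 cells. The KT and KT_Cas9 barcodes were each found in 1 further mouse as well, and the KTL_Cas9 barcode in no other.

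Depth differed between the genotypes. Among the mice used, reads on named vectors ran from 936090 to 1505173 in KT and from 92713 to 4516887 in KT_Cas9. In KTL_Cas9 they ran from 2181575 to 8547188. Tumours per mouse, in the same order of genotypes, numbered 20490 to 51273, 2013 to 56334 and 879 to 4522. The median Nuak1/Nuak2 tumour was backed by 11 to 14 reads in KT mice, 7 to 18 in KT_Cas9 mice and 19 to 2239 in KTL_Cas9 mice, so sizes near the floor moved in coarse steps in the first pair of genotypes. KTL_Cas9 replicate 1 had 0 inert tumours and was left out, and KT replicate 4 had no records and was not analysed here.

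Nuak1/Nuak2 tumours made up a larger share of the tumour count in KTL_Cas9 mice than in the others. In KT mice they numbered 537, 991, 1191 and 952 in replicates 1, 2, 3 and 5. These are 35.9, 32.8, 32.3 and 29.5 tumours per 100 inert tumours of the same mouse, a narrow range that gives the abundance of the vector without Cas9. KT_Cas9 mice held from 56 to 1646 Nuak1/Nuak2 tumours (median 220), or 30.6 to 48.0 per 100 inert tumours (median 34.9). The KT_Cas9 and KT ranges overlapped, and the highest KT_Cas9 values, 48.0 and 43.4, came from replicates 2 and 5, the mice with the fewest inert tumours of that genotype (125 and 129). KTL_Cas9 mice held from 28 to 173 Nuak1/Nuak2 tumours (median 54), or 36.4 to 70.5 per 100 inert tumours (median 53.7). Every KTL_Cas9 mouse lay above every KT mouse, and the lowest of them, replicates 6 and 8 at 36.4 and 37.8, lay inside the KT_Cas9 range.

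Expressed as log2 of Nuak1/Nuak2 over inert tumours in each mouse, the number was -1.62 ± 0.12 (SD, n = 4) in KT, -1.48 ± 0.22 (SD, n = 10) in KT_Cas9 and -1.01 ± 0.34 (SD, n = 7) in KTL_Cas9 mice. Cas9 with Lkb1 present left a difference within the spread of mice, 0.14 ± 0.09 (SE; two-sided exact permutation of mouse labels, p = 0.261, adjusted p = 0.598 by Benjamini-Hochberg over the 24 targeting vectors). In this comparison the permutation test called 0% of the 24 vectors, that is, 0 had an adjusted p of at most 0.05, and 0 had an unadjusted p under 0.05. Limma and edgeR with the inert tumours as library size also called 0, edgeR with TMM scaling called 5, and none of them called Nuak1/Nuak2. KTL_Cas9 mice had 1.39-fold more Nuak1/Nuak2 tumours per inert tumour than KT_Cas9 mice, a log2 difference of 0.47 ± 0.15 (SE; exact permutation p = 0.00370, adjusted p = 0.0469). Of 70 pairs of a KTL_Cas9 and a KT_Cas9 mouse, 62 had the higher value in the KTL_Cas9 mouse. The test called 8.33% of the 24 vectors, 2 in all, both higher in KTL_Cas9, and the Nuak1/Nuak2 difference was the highest of the 24. Against KT the difference was 1.53-fold, log2 0.61 ± 0.14 (SE), again the highest of the 24 and present in 28 of 28 pairs of mice. Its exact permutation p was 0.0121, against a smallest possible 0.00303, and the adjusted p of 0.0970 missed the threshold of 0.05. The permutation test called 0% of the 24 vectors there, with 5 at an unadjusted p under 0.05, whereas limma (adjusted p = 0.0357) and edgeR's quasi-likelihood test with the inert tumours as library size (adjusted p = 6.86e-05) both called Nuak1/Nuak2.

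**Figure D1:**
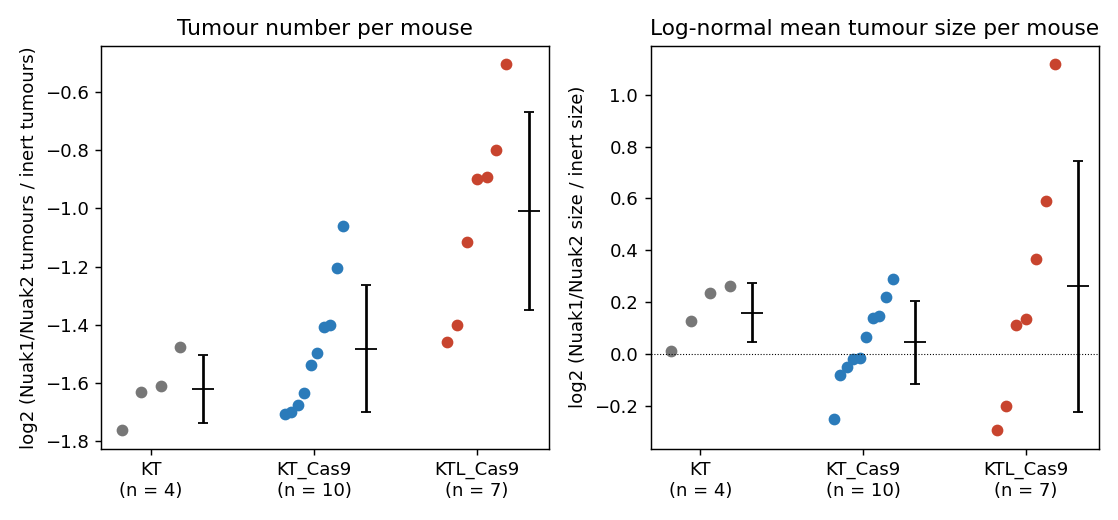
Each point is 1 mouse, set in order of value within its genotype; the vertical axes are log2 ratios of Nuak1/Nuak2 to inert tumours of the same mouse, for number on the left and log-normal mean size on the right, and the bars are mean ± SD. For number the 7 KTL_Cas9 mice all lie above the 4 KT mice, while for size the genotypes overlap and KTL_Cas9 replicate 8 is highest at 1.12.

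The size of this number difference depended on which inert vector stood below the line. The 2 inert vectors did not keep a fixed ratio. Inert triple over inert dual tumours was -1.61 ± 0.11 on the log2 scale in KT (SD, n = 4), -1.46 ± 0.25 in KT_Cas9 (SD, n = 10) and -1.19 ± 0.33 in KTL_Cas9 mice (SD, n = 7). Between KTL_Cas9 and KT that ratio differed by 0.42 ± 0.13 (SE, exact permutation p = 0.0455), and between KTL_Cas9 and KT_Cas9 by 0.28 ± 0.15 (SE, exact permutation p = 0.0626), both unadjusted. Against the inert triple vector alone, KTL_Cas9 mice had 114 to 257 Nuak1/Nuak2 tumours per 100 inert ones, KT_Cas9 mice 108 to 222 and KT mice 127 to 140, and the genotypes overlapped. The log2 difference was then 0.28 ± 0.19 (SE; exact permutation p = 0.132, adjusted p = 0.601) for KTL_Cas9 against KT_Cas9 and 0.31 ± 0.17 (SE; exact permutation p = 0.2, adjusted p = 0.869) for KTL_Cas9 against KT. With the inert dual vector alone it was 0.55 (adjusted p = 0.0210 by exact permutation) and 0.73 (adjusted p = 0.0545 by exact permutation). All 11 targeting triple vectors were more numerous per inert tumour in KTL_Cas9 than in KT mice (median 0.35), and so were 11 of 13 dual vectors, by a median of 0.07. The part that cassette number plays in the Nuak1/Nuak2 value was not tested.

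**Figure D2:**
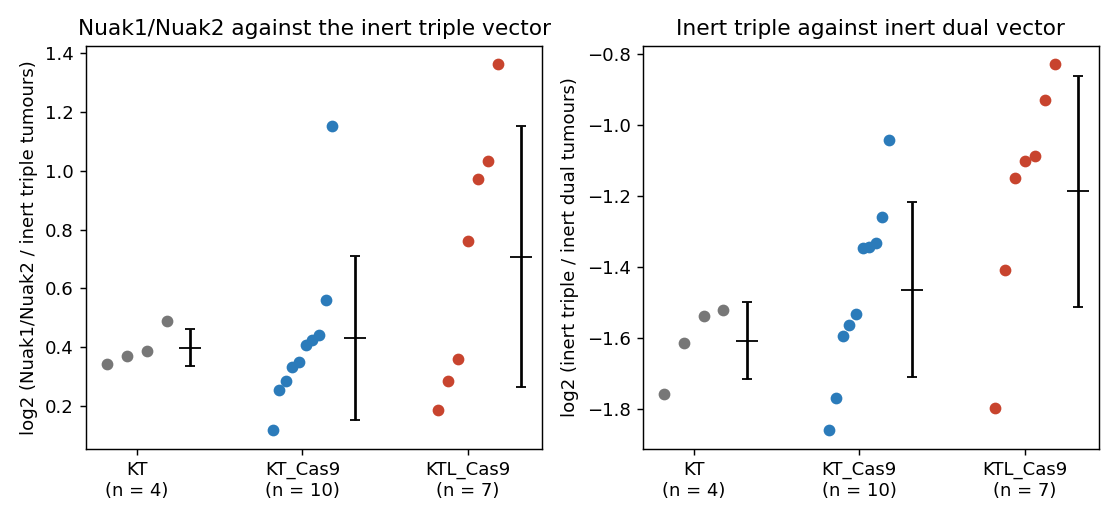
Each point is 1 mouse, set in order of value within its genotype, with mean ± SD as bars; the axes are log2 ratios of tumour numbers. On the left Nuak1/Nuak2 tumours are set against the inert triple vector, where the 3 genotypes overlap (means 0.40, 0.43 and 0.71), and on the right the inert triple is set against the inert dual vector, whose mean moves from -1.61 in KT to -1.19 in KTL_Cas9.

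The call for KTL_Cas9 against KT_Cas9 also lay close to the threshold. Leaving out each of the 17 mice in turn gave differences between 0.39 and 0.55, all above 0, but the adjusted exact permutation p rose above 0.05 in 13 cases, to between 0.0703 and 0.118. The call held without KTL_Cas9 replicates 6 or 8 and without KT_Cas9 replicates 2 or 5. It was lost without KTL_Cas9 replicates 2, 3, 4, 5 or 7 and without KT_Cas9 replicates 1, 3, 4, 6, 7, 8, 9 or 10, and the lowest difference, 0.39, was that without KTL_Cas9 replicate 2. KTL_Cas9 mice varied more than KT_Cas9 mice, and permuting the difference over its own SE gave an adjusted p of 0.0907 here but 0.0485 for KTL_Cas9 against KT.

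Larger Nuak1/Nuak2 clones showed the number difference between KTL_Cas9 and KT_Cas9 mice too, at floors of 1500 and 5000 cells. With a floor of 1500 cells the mean log2 number ratio was -0.94 ± 0.32 in KTL_Cas9 (SD, n = 7), -1.56 ± 0.26 in KT_Cas9 (SD, n = 8) and -1.47 ± 0.15 in KT mice (SD, n = 4). KT_Cas9 replicates 2 and 5 dropped out there, with 17 and 11 inert tumours. At 500 cells these mice had the highest ratios of KT_Cas9, -1.06 and -1.20. How much of the change with the floor came from this change of mice was not tested. The KTL_Cas9 value stood 0.62 ± 0.15 (SE) above KT_Cas9, with an adjusted p of 0.0149 by exact permutation, and was the 1 vector called. With a floor of 5000 cells it stood 0.77 ± 0.27 (SE) above, with an adjusted p of 0.0373 by exact permutation, among 10 vectors called. At that floor only 6 KT_Cas9 mice met the minimums for both Nuak1/Nuak2 and inert tumours, and their SD was 0.63. KT_Cas9 replicate 6 had the 5 Nuak1/Nuak2 tumours needed but only 11 inert tumours, too few to be used. At 10000 cells, with 4 KT_Cas9 mice left, the difference of 0.37 ± 0.25 (SE) was not called (exact permutation, adjusted p = 0.175), while 13 of 24 vectors were. With a floor below 500 cells, the lower of those used for the table, it was 0.50, with an adjusted p of 0.00529 by exact permutation. KTL_Cas9 minus KT was 0.53, 0.66 and 0.56 at floors of 1500, 5000 and 10000 cells. None of these was called (exact permutation, adjusted p = 0.291, 0.0727 and 0.232), and 0 vectors were called at each floor. At 5000 cells the unadjusted exact permutation p of 0.00303 was the smallest possible with these mice. It could not pass the adjustment over 24 vectors unless other vectors had low p-values too.

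**Figure D3:**
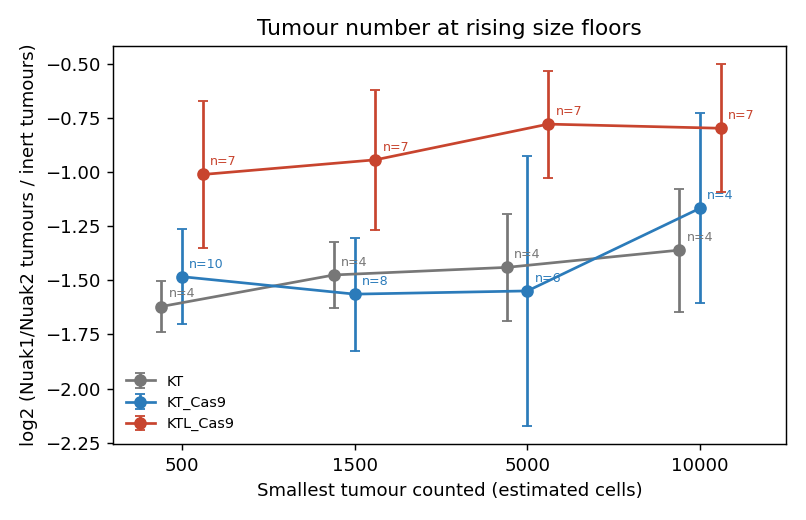
Points are means over mice of the log2 ratio of Nuak1/Nuak2 to inert tumours, counted above a floor on estimated cells (horizontal axis, evenly spaced floors), with SD bars and the number of mice beside each point. KTL_Cas9 lies highest at every floor drawn, from -1.01 at 500 cells to -0.80 at 10000, and the KT_Cas9 mice fall from 10 to 4.

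The classes of clone size show where the tumours lay. In KTL_Cas9 mice 191 of 581 Nuak1/Nuak2 tumours held under 1500 cells, 95 held 1500 to 5000, 193 held 5000 to 50000 and 102 held more. Per 100 inert tumours of the same class these are 44.9, 36.4, 56.8 and 56.7. The share of Nuak1/Nuak2 tumours past 5000 cells ran from 28.9% to 79.6% over the 7 mice (median 59.0%), against 28.0% to 62.8% of inert tumours (median 46.9%), and it was the higher of the pair in each of the 7 mice. The same held in 3 of 4 KT mice, which have no Cas9, and in 6 of 10 KT_Cas9 mice. In KT_Cas9 mice 3042 of 4116 Nuak1/Nuak2 tumours held under 1500 cells and 19 held more than 50000, with 35.3 and 52.8 per 100 inert tumours, the latter against only 36 inert tumours. In KT mice 2158 of 3671 tumours held under 1500 cells and 14 more than 50000, with 30.1 and 35.9 per 100 inert tumours. These counts pool mice of unequal tumour number and were not tested.

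The mean size of Nuak1/Nuak2 tumours stayed near that of inert tumours in KT_Cas9 mice. In KT mice the log-normal mean (the maximum likelihood mean of a log-normal distribution) was 1900, 2272, 3699 and 1975 cells in replicates 1, 2, 3 and 5, against 1740, 1928, 3088 and 1961 cells for inert tumours. Nuak1/Nuak2 was the higher in all 4 KT mice, by 0.16 ± 0.11 (SD) on the log2 scale, although no guide could act there. In KT_Cas9 mice the Nuak1/Nuak2 mean ran from 914 to 2170 cells (median 1334), against 926 to 1845 cells for inert tumours (median 1365). The log2 ratio was 0.04 ± 0.16 (SD, n = 10), above 0 in 5 of 10 mice, from -0.25 in replicate 6 to 0.29 in replicate 3. An exact two-sided sign-flip permutation within KT_Cas9 mice gave p = 0.395 and an adjusted p of 0.412, where 75% of the 24 vectors were called. The Nuak1/Nuak2 ratio ranked 23 of 24, above the triple vector against Mark2, Mark3 and Mark4, kinases of microtubule regulation, at 0.04 ± 0.12 (SD, n = 10).

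Against KT the log2 size ratio in KT_Cas9 mice was 0.11 lower, a difference of -0.11 ± 0.08 (SE), or a size relative to inert tumours 7.63% lower. It was not called (exact permutation p = 0.222, adjusted p = 0.313). This was the lowest of the 24 differences, in a comparison where the test called 58.3% of vectors, 14 of 24, and all 14 as larger. Both groups overlapped, with 11 of 40 pairs of mice higher in KT_Cas9. With smaller clones counted the same difference passed the test, at -0.18 (adjusted p = 0.0408 by exact permutation) for the lower floor and -0.17 (adjusted p = 0.0390 by exact permutation) with no floor. It turned to 0.50 and 0.15, neither called, at floors of 5000 and 10000 cells, where 6 and 4 KT_Cas9 mice remained. At 5000 cells without barcodes found in more than 1 mouse it was -0.057 (exact permutation, adjusted p = 0.935).

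In KTL_Cas9 mice the log-normal mean of Nuak1/Nuak2 tumours ran from 21070 to 89848 cells (median 52070), against 19495 to 103239 cells for inert tumours (median 34618). The log2 ratio was 0.26 ± 0.49 (SD, n = 7), above 0 in 5 mice, from -0.29 in replicate 3 to 1.12 in replicate 8. The exact sign-flip permutation gave p = 0.219 and an adjusted p of 0.375. It called 0% of the 24 vectors, since with 7 mice its smallest p of 0.0156 could not pass the adjustment unless several vectors reached it. Against KT_Cas9 the difference was 0.22 ± 0.19 (SE; exact permutation p = 0.212, adjusted p = 0.314), in a comparison that called 37.5% of vectors (1 higher, 8 lower), and against KT it was 0.10 ± 0.19 (SE; exact permutation p = 0.724, adjusted p = 0.848). The comparison with KT called 0% of the 24 vectors, with 6 at an unadjusted p under 0.05 in the permutation test, and limma called 3, without Nuak1/Nuak2. Without KTL_Cas9 replicate 8, which held 28 Nuak1/Nuak2 tumours, the difference from KT was -0.04, and that from KT_Cas9 was 0.07.

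Between KTL_Cas9 and KT_Cas9 mice, size percentiles were called different at the 50th and 60th and at none of the 5 higher ones. Between KTL_Cas9 and KT mice neither was called, with differences of 0.56 ± 0.31 (SE) at the 50th and 0.42 ± 0.19 (SE) at the 60th (exact permutation, adjusted p = 0.436 and 0.373). The median Nuak1/Nuak2 tumour of KTL_Cas9 mice ran from 1542 to 21669 cells (median over mice 8508), against 1704 to 17664 cells for inert tumours (median 4106). Its log2 ratio was 0.63 ± 0.80 (SD, n = 7), positive in 5 of 7 mice and highest in replicates 6 and 8 at 1.42 and 1.89. In KT_Cas9 mice it was 0.01 ± 0.08 (SD, n = 10). The difference of 0.62 ± 0.30 (SE) was called (exact permutation p = 0.0131, adjusted p = 0.0393), among 33.3% of vectors, 8 of 24. KTL_Cas9 mice varied far more than KT_Cas9 mice in this value, and permuting the difference over its SE gave an adjusted p of 0.155. At the floor of 1500 cells the difference was 0.29 and with no floor 0.17, neither called. It also lost its call without KTL_Cas9 replicates 5, 6, 7 or 8 and without 9 of the 10 KT_Cas9 mice, all but replicate 4, with values from 0.41 to 0.76 over the 17 mice left out in turn.

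At the 60th percentile the ratio was 0.58 ± 0.50 in KTL_Cas9 (SD, n = 7) and 0.01 ± 0.11 in KT_Cas9 mice (SD, n = 10). In KT_Cas9 replicates 1, 2, 4, 7, 8 and 9 it was exactly 0. Sizes there were still small, 801 to 1232 cells for Nuak1/Nuak2 tumours over the 10 KT_Cas9 mice. The part of these ties was not tested either. Replicate values ran from 0.00 in KTL_Cas9 replicate 4 to 1.31 in replicate 8. The difference of 0.57 ± 0.19 (SE) was 1.48-fold and was called (exact permutation p = 0.00129, adjusted p = 0.00740), among 41.7% of vectors, and it stayed called with each of the 17 mice left out. Permuted over its SE it had an adjusted p of 0.0200. The call was lost at the floor of 1500 cells (0.20), with no floor (0.26), with at least 10 reads a tumour (0.46) and against the inert triple vector alone (0.87), where the adjusted exact permutation p ran from 0.0526 to 0.689. From there the difference fell to 0.30 at the 70th, 0.26 at the 80th and -0.13 at the 90th percentile, then 0.19 at the 95th and -0.29 at the 99th, none of them called by exact permutation (lowest adjusted p = 0.169). At the 99th percentile, which in mice with under 100 tumours is set by the largest clones, the ratio was -0.41 ± 0.72 (SD, n = 7) and the groups overlapped.

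Between KT_Cas9 and KT the percentile differences were all below 0, from -0.07 at the 50th to -0.27 at the 99th, and were the lowest of the 24 vectors from the 50th to the 95th. Unadjusted exact permutation p-values were 0.0310 at the 60th and 0.0270 at the 80th percentile, and no adjusted p passed (lowest 0.134). The 7 percentiles of a mouse come from the same tumours and are not independent.

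**Figure D4:**
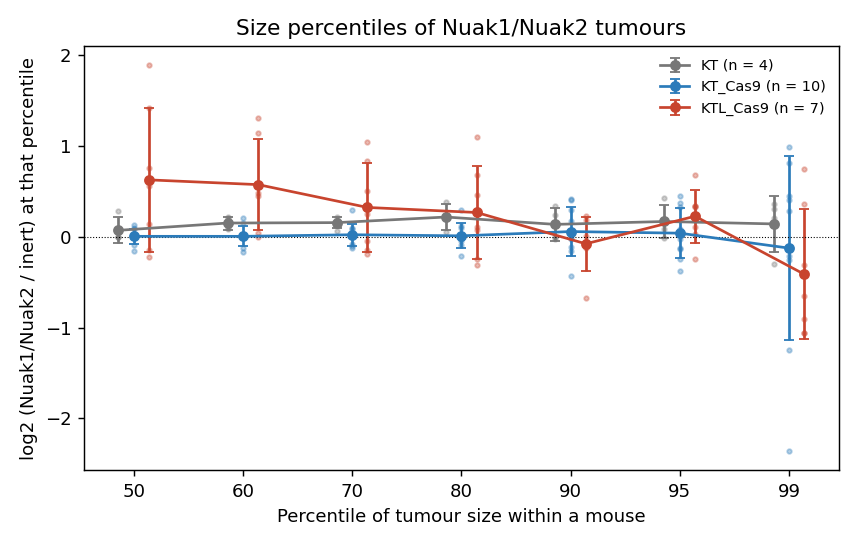
Large points are means over mice, with SD bars, of the log2 ratio of Nuak1/Nuak2 to inert tumour size at 7 percentiles of size within a mouse (horizontal axis), and small points are single mice. The KTL_Cas9 mean is the highest at 5 of the 7 percentiles, from 0.63 at the 50th to 0.23 at the 95th, and the lowest at the 90th and 99th, while KT_Cas9 stays near 0 up to the 95th.

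Set against the other vectors within the same mice, Nuak1/Nuak2 tumours of KT_Cas9 mice were smaller than those of 16 of 23 vectors (69.6%; exact sign-flip permutation of the paired difference, adjusted over the 23). These were 9 of 10 vectors against Lkb1, 5 of 5 against several salt-inducible kinases (Sik1, Sik2, Sik3) and 2 of 4 against Sik1 or Sik3 alone. Median differences were -0.85 for Lkb1, -0.92 for several Sik genes and -0.14 for a single Sik gene. None of the 4 vectors against other AMPK-related kinases differed from it. Those differences were -0.14 ± 0.08 (SE) for Snrk, a kinase related to sucrose non-fermenting 1, -0.07 ± 0.12 and -0.04 ± 0.07 for the triple and dual vectors against Ampk1 and Ampk2, the energy sensors that give the family its name, and 0.0019 ± 0.06 for the triple Mark vector. Their adjusted exact permutation p was at least 0.115, which does not show that these vectors act alike.

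In KTL_Cas9 mice the same paired test called 0% of the 23 contrasts, 8 of them with an unadjusted p under 0.05, and its smallest p of 0.0156 met 23 tests. Nuak1/Nuak2 minus the triple Mark vector was 0.93 ± 0.19 (SE) on the log2 size scale, above 0 in 7 of 7 mice, and minus the triple Ampk vector 1.03 ± 0.35 (SE), above 0 in 6 of 7 mice (exact sign-flip permutation, adjusted p = 0.0719 and 0.135). Against the 5 Sik multi-gene vectors the differences ran from -2.20 to -0.55, with a median of -1.35. Against the triple Snrk and dual Ampk vectors they were 0.0089 ± 0.12 and -0.0026 ± 0.31 (SE). The Nuak1/Nuak2 log2 size ratio to inert tumours, 0.26, lay beside that of Snrk (0.25 ± 0.48 SD) and dual Ampk (0.26 ± 0.78 SD), while triple Mark (-0.67 ± 0.75 SD) and triple Ampk (-0.77 ± 1.08 SD) were below 0 in 6 of 7 mice each.

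For number, the rise from KT_Cas9 to KTL_Cas9 mice was larger for Nuak1/Nuak2 than for 13 of 23 vectors (56.5%; exact permutation of the difference between vectors, adjusted over the 23). These were 5 of 5 Sik multi-gene, 3 of 4 Sik single-gene and 4 of 10 Lkb1 vectors and 1 of the 4 others, dual Ampk1/Ampk2, with an excess of 0.31 ± 0.09 (SE). By design they were 10 of 13 dual and 3 of 10 triple vectors, with a median excess of 0.34 and 0.20, and the part that design plays was not tested. Against the triple Snrk, Mark and Ampk vectors the excess was 0.19 ± 0.09, 0.27 ± 0.14 and 0.08 ± 0.26 (SE), none called (exact permutation, lowest adjusted p = 0.0691). From KT to KTL_Cas9 mice the Nuak1/Nuak2 difference was larger than that of 15 of 23 vectors (65.2%). That count was 9 when KT replicate 3 or KT replicate 5 was left out. From KT to KT_Cas9 it differed from 0% of the 23 vectors, 3 of them with an unadjusted p under 0.05 by exact permutation. With the mean of the other AMPK-related vectors in place of inert tumours, the number difference between KTL_Cas9 and KT_Cas9 was 0.21 (exact permutation p = 0.0474, adjusted p = 0.162), while the size difference was 0.55 (adjusted p = 0.00173 by exact permutation). That mean includes the triple Mark and triple Ampk vectors, whose own size differences between these genotypes were -0.71 and -0.88 (exact permutation, adjusted p = 0.0184 and 0.0522).

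**Figure D5:**
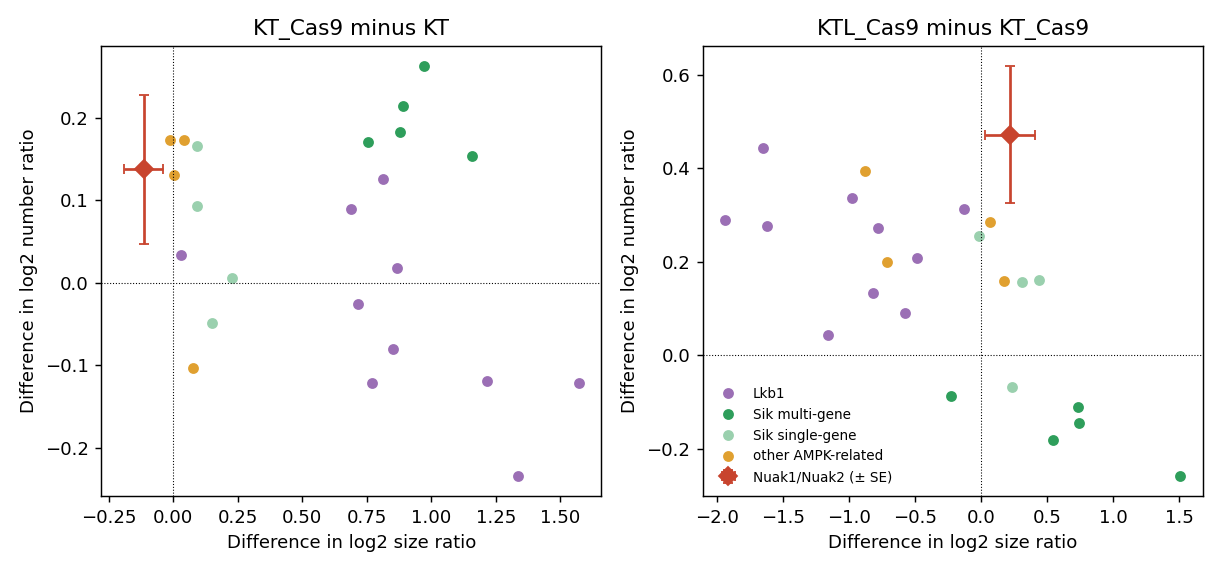
Each point is 1 of the 24 targeting vectors, with its difference between genotypes in log2 size ratio to inert tumours (horizontal) and in log2 number ratio (vertical), coloured by target; bars on Nuak1/Nuak2 are SE over mice. From KT to KT_Cas9 (left) Nuak1/Nuak2 is the leftmost point at -0.11, and from KT_Cas9 to KTL_Cas9 (right) it is the highest at 0.47.

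Some barcodes of the vector recurred between mice. Of the KTL_Cas9 Nuak1/Nuak2 tumours 58 of 581 (9.98%) had a barcode also found in another mouse, against 5.39% of inert tumours there, 2.64% of Nuak1/Nuak2 tumours in KT and 3.45% in KT_Cas9 mice. Over all mice 25 of 22379 Nuak1/Nuak2 barcodes stood in 5 or more mice, 0.112%, the highest share of the 26 vectors, and 1 of them stood in 17 mice. Without any recurring barcode the number difference between KTL_Cas9 and KT_Cas9 mice was 0.46 (adjusted p = 0.0197 by exact permutation). The size difference rose from 0.22 to 0.57 and was then called (adjusted p = 0.00123 by exact permutation). Why these barcodes recur was not tested.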

How the data were processed

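Per the file headers, a line of the deposited table is 1 barcode behind 1 vector tag in 1 mouse, with a read count, the ratio of cells per read of the mouse and an estimated number of cells, the count multiplied by that ratio. That ratio multiplied by another column, 1 value for each mouse, always made 500000, so this column was read as the reads of a standard of that many cells. Not given in the sources used here are the aligner, build, read processing and making of the standard. No value rests on genome coordinates. The table held 1019578 lines, and 105870 repeats, all of KT replicate 2, were dropped. Lines without a vector name (48400, 1.76% of reads) were left out. Columns of other samples numbered 0. Groups follow the genotype labels, and replicate numbers, absent there, only name mice in order of record.

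Tumours had at least 500 cells, with a lower floor, none, 1500, 5000 and 10000 as alternatives. Minimums were 5 tumours of a vector and 20 inert tumours per mouse, and 4 mice per group (3 in the leave-one-out runs). Number was the log2 ratio of tumours to inert tumours, and size that of log-normal means. The mouse was the replicate. Tests were two-sided exact permutations of mouse labels (1001 splits for the pair without floxed Lkb1, 330 with KT as control of KTL_Cas9, 19448 with KT_Cas9) and exact sign-flips, with Benjamini-Hochberg adjustment and a threshold of 0.05, run in Python 3.11.15. Label permutation assumes that both groups vary alike, and permuting the difference over its SE was added after seeing the data because they did not. The alternatives were limma 3.58.1 and, on tumour counts, edgeR 4.0.16 (quasi-likelihood). The scripts were tested on simulated data. Nothing says that reads carried molecular identifiers, so read counts are not independent molecules. Members, lists and rules were chosen with earlier results of these data known. Named were the Nuak1/Nuak2 vector, vectors compared with it and the largest clones of each genotype. Both members matched the mouse gene table (GRCm38.p6, names only).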

Additional observations from a re-analysis of the deposited data

Results flagged for a closer look

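The number of Nuak1/Nuak2 tumours per inert tumour differed between KTL_Cas9 and KT_Cas9 mice by 0.473 on the log2 scale, which passed the exact permutation test of the mouse labels across the 24 vectors (adjusted p = 0.0469). This difference between genotypes was 0.28 against the inert triple vector alone, where it was not called.

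Nuak1/Nuak2 tumour size relative to inert tumours also differed between these genotypes at the 50th percentile, by 0.622 on the log2 scale (exact permutation, adjusted p = 0.0393), and at the 60th, by 0.570 (exact permutation, adjusted p = 0.00740). Differences at the 5 higher percentiles were not called. The 50th lost its call under 5 other settings (down to 0.17) and in 13 of 17 runs that left out 1 mouse, and the 60th under 4 other settings (down to 0.20). Against KT neither was called. In KT_Cas9 replicates 1, 2, 7 and 9 both ratios were exactly 0, and the part of these ties was not tested.

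KTL_Cas9 replicate 1, which entered no comparison, held a signal of another kind. Of its 3247 barcodes with a vector name, 629 were of the Nuak1/Nuak2 vector, 19.4%, the largest share of any vector in that mouse. In the 21 mice used the share ran from 2.23% to 3.97%. None of those barcodes reached the tumour floor, the largest holding 412 cells, and the mouse had 17 tumours in all. The triple Ampk1/Ampk2 vector made up 12.3% there and both inert vectors together 2.71%. No mouse stood apart from its group in number or size of Nuak1/Nuak2 tumours by Dixon's test.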

How the results depend on the processing

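Directions and calls below are for Nuak1/Nuak2 as log2 differences. Floors of 5000 and 10000 cells, shares of all tumours, permutation over the SE, and all alternatives for percentiles and vector contrasts were chosen after seeing the data. Tests between genotypes were unpaired, because each mouse had a single genotype. Sign-flip tests within a genotype compared tumours of the same mouse.

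Size, KT_Cas9 minus KT, was called at the lower floor (-0.18) and with none (-0.17) and turned at 5000 (0.50) and 10000 (0.15). Size, KTL_Cas9 minus KT, turned at floors of 1500 (-0.0033), 5000 (-0.16) and 10000 (-0.10), with arithmetic means (-0.10) and the 90th percentile (-0.21), and ran from -0.040 to 0.20 with single mice left out. Size, KTL_Cas9 minus KT_Cas9, was called without shared barcodes (0.57), against other AMPK-related vectors (0.55) and as median (0.62), and turned with arithmetic means (-0.0016), the 90th percentile (-0.13) and floors of 5000 (-0.66) and 10000 (-0.25). Size against inert turned in KT_Cas9 at the lower floor (-0.00046) and in KTL_Cas9 at the 90th percentile (-0.076).

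Number, KT_Cas9 minus KT, turned at 1500 (-0.089) and 5000 cells (-0.11), at 5000 without shared barcodes (-0.038) and with at least 10 reads (-0.00019). Number, KTL_Cas9 minus KT, was called at the lower floor (0.71), with limma and permutation over the SE (both 0.61) and with edgeR (0.59, or 0.41 with TMM scaling). Number, KTL_Cas9 minus KT_Cas9, lost its call with the inert triple vector (0.28), against other AMPK-related vectors (0.21), at 10000 cells (0.37) and permuted over the SE (0.47), and ran from 0.39 to 0.55 with single mice left out. It kept its call under the other 12 alternatives, edgeR and limma among them.

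The 50th percentile lost its call at the lower floor (0.36), at 1500 (0.29) and with no floor (0.17), with the inert dual vector (0.47) and permuted over the SE (0.62), and ran from 0.41 to 0.76 with single mice left out. The 60th lost it at 1500 (0.20), with no floor (0.26), with at least 10 reads (0.46) and with the inert triple vector (0.87). Contrasts in number from KT to KTL_Cas9 called 9 to 16 vectors with single mice left out. The causes were not tested. Depth limits small clones. Of the mice used, a KT mouse had 3.13 to 7.81 reads per 500 cells, a KT_Cas9 mouse 3.76 to 12.01, and a KTL_Cas9 mouse 6.16 to 51.7.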
